A study of Mus musculus with 1 sample.

Results

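The cells described are non-cycling capillary endothelial cells, which line small blood vessels, from dissected adrenal medullae of postnatal mice. They were picked from 1 droplet-based single-cell RNA library by the genes detected in each cell. A member had 500 to 5000 detected genes, at most 20% mitochondrial transcripts and at least 4 of 7 endothelial genes (*Emcn*, *Cd34*, *Pecam1*, *Cdh5*, *Kdr*, *Plvap*, *Egfl7*). It also had at most 1 of 6 arterial genes (*Gja4*, *Gja5*, *Hey1*, *Sox17*, *Sema3g*, *Efnb2*), fewer than 3 of 6 cell cycle genes (*Cenpf*, *Cks2*, *Prc1*, *Hmgb2*, *Birc5*, *Ube2c*), fewer than 4 of 7 chromaffin genes and fewer than 5 of 9 cortex genes. The deposited matrix held 11214 barcodes, 10139 passed the limits on genes and mitochondrial transcripts, and 1476 of these (14.6%) were members. Applied in turn, the clauses left 2465 cells after the endothelial genes, 2322 after the chromaffin genes, 1935 after the cortex genes, 1803 after the arterial genes and 1476 after the cell cycle genes.

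The library came from wild-type mice at postnatal day 15 that received no treatment, on mixed backgrounds backcrossed to CD1. The 10 adrenals of 5 mice of both sexes were pooled after most of the cortex had been trimmed away by hand, and the glands were dissociated with enzymes. About 10000 viable cells were loaded. Transcripts were counted as unique molecular identifiers (UMIs) in the 3′ end of each RNA, and the members held 3646679 UMIs, with a median of 1999 per cell (685 to 13876) in a median of 1108 genes.

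Endocrine glands are supplied by fenestrated capillaries, whose wall is pierced by pores that let hormones pass into the blood. The protein of *Plvap* forms the thin diaphragm across such pores and across caveolae. These vessels are kept by vascular endothelial growth factor A (VEGF-A), which gland cells make and which endothelial cells sense through the receptors encoded by *Kdr* and *Flt1*. Capillary endothelium also carries GPIHBP1, which holds lipoprotein lipase on the vessel wall, where it frees fatty acids from circulating lipoproteins.

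All mice went into 1 library, so no spread between animals could be measured and no difference below was tested. Levels are counts per 1000000 UMIs (CPM) summed over a group's cells. Their 95% intervals are exact Poisson ones, those of shares and ratios exact binomial ones, and all cover counting error only. A fold is a ratio of CPM + 10. A gene was counted as higher or lower when its fold was at least 2 either way and it reached 10 CPM in either group. The members were set beside 104 arterial-like endothelial cells (2 or more of the 6 arterial genes, with fewer than 3 cell cycle genes), 327 cycling endothelial cells (3 or more of the 6 cell cycle genes, with at most 1 arterial gene) and 7215 non-endothelial cells with at most 1 endothelial gene. Their median depths differed, at 3584, 3721 and 3914 UMIs per cell, all above that of the members. The endothelial genes chose the members, so the contrast with non-endothelial cells is a description of the cells the rule found.

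The 4 genes that name the population were detected in most members. *Plvap* was at 1034 CPM and in 82.4% of members, *Emcn*, which encodes the sialomucin endomucin of capillaries and veins, at 1609 CPM and in 94.9%, *Kdr* at 1486 CPM and in 86.7%, and *Cdh5*, the cadherin of endothelial junctions, at 501 CPM and in 64.5%. In non-endothelial cells the same genes were at 1.73, 2.51, 1.70 and 0.351 CPM. Because all 4 belong to the rule, these values check the selection and are not findings. They also do not separate capillary from other endothelium, since arterial-like cells had *Plvap* at 846 CPM and *Kdr* at 1829 CPM. Of the arterial genes, the gap junction genes *Gja4* and *Gja5* were at 0.274 and 0 CPM in members, while *Efnb2* was still at 129 CPM, against 363 CPM in arterial-like cells. The word non-cycling held for most members only, because 1 cluster of 129 cells, described below, led with replication genes. The word capillary rests on low arterial genes, since no clause of the rule sets capillaries apart from veins. Nor does a clause part medullary from cortical vessels, and the library held 2975 cortex-like cells beside 2582 chromaffin-like cells.

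Among the 25 genes with the largest fold over non-endothelial cells, the 7 genes of the rule left out, were *Fabp4*, *Gpihbp1*, *Rgcc*, *Fam167b* and *Ednrb*, which led the order. Of 9649 genes compared, 1217 (12.6%) were at least 2-fold higher in members and 1417 (14.7%) lower. All 25 leading genes, ordered by fold, kept their call in the 12 alternative settings that gave them a value. They were picked for the largest folds, the 25th being 32.7-fold, so this outcome was close to set by the choice. *Fabp4*, a carrier of fatty acids inside the cell (chromosome 3, 10204088 to 10208576, minus strand, in the mouse build GRCm38, which is mm10), led at 5721 CPM (5644 to 5799.5) against 22.96 CPM, a fold of 174. It was found in 98.3% of members and in 6.38% of the deeper non-endothelial cells, and after each cell was thinned to 1000 UMIs in 97.7% and 2.17%. *Gpihbp1*, the anchor of lipoprotein lipase (chromosome 15, 75596628 to 75599481, plus strand), was at 2058 CPM (2012 to 2105) against 4.13 CPM, and in 75.9% of thinned members against 0.502% of thinned non-endothelial cells. Both genes were thus low outside endothelium. They did not set capillaries apart from arterial-like cells, which held *Fabp4* at 5825 CPM and *Gpihbp1* at 2153 CPM.

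**Figure D1:**
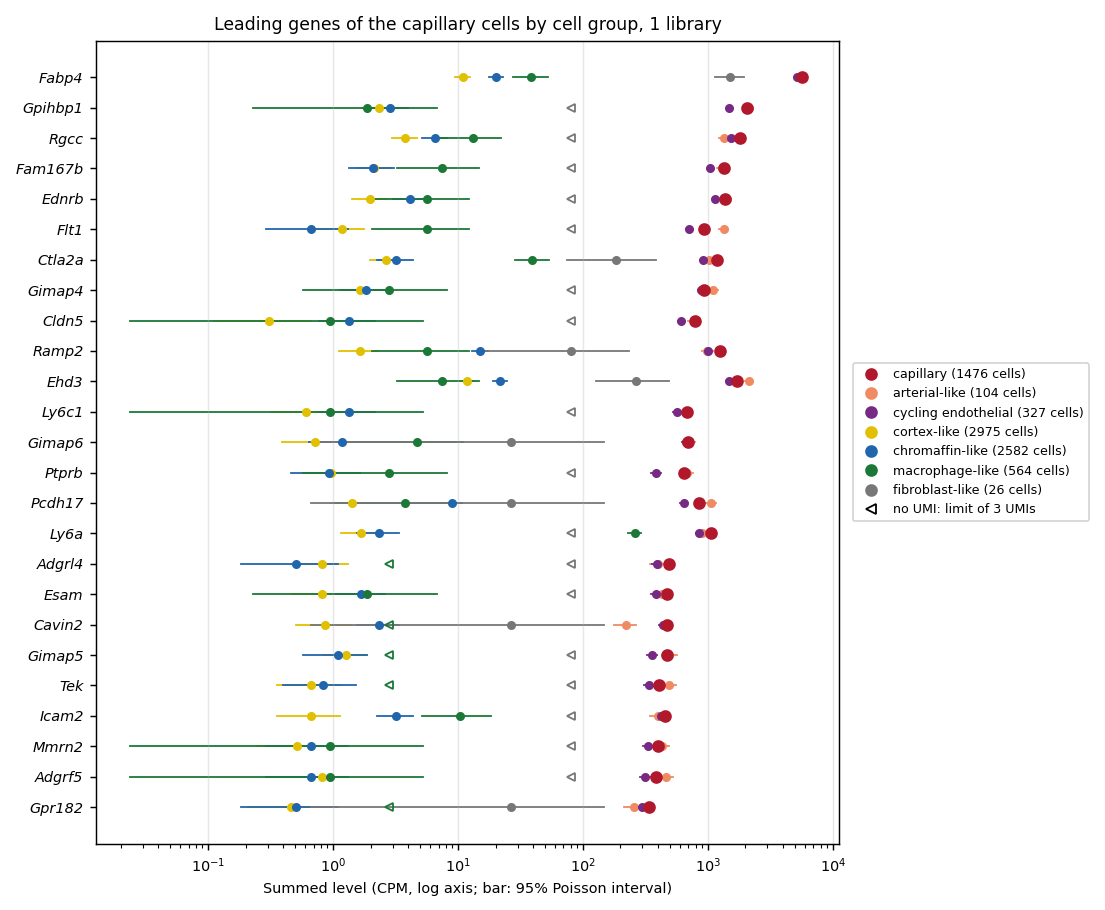
Summed level in CPM (log axis) of the 25 leading genes in 7 cell groups of 1 library, with bars for 95% Poisson intervals and open triangles for the limit of 3 UMIs where a group had none. Capillary cells lie beside arterial-like and cycling endothelial cells for nearly every gene, as for *Fabp4* at 5721, 5825 and 5148 CPM, and far above cortex-like and chromaffin-like cells.

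Known roles can be given for several of the other leading genes. *Rgcc*, a regulator of the cell cycle that capillaries express, was at 1801 CPM against 7.12 CPM, and *Ednrb*, the type B endothelin receptor (chromosome 14, 103814625 to 103844402, minus strand), at 1385 CPM against 3.91 CPM. *Flt1*, the VEGF receptor that binds the ligand without strong signalling, was at 930.4 CPM (899 to 962) and in 73.8% of members. *Ramp2*, which makes the calcitonin receptor-like receptor a receptor for adrenomedullin, was at 1263 CPM, and *Tek*, the angiopoietin receptor, at 404 CPM. Among membrane genes, *Ehd3*, an ATPase of membrane trafficking, was at 1720.5 CPM, and *Cldn5*, a claudin of endothelial tight junctions, at 796 CPM (767 to 825). A group of 3 immune-associated GTPases of neighbouring genes, *Gimap4*, *Gimap6* and *Gimap5*, was at 939, 695 and 474 CPM. The remaining leading genes were *Fam167b* (1357 CPM), *Ctla2a* (1190.4), *Ly6c1* (682), *Ptprb* (644), *Pcdh17* (849), *Ly6a* (1062), *Adgrl4* (493), *Esam* (471), *Cavin2* (476), *Icam2* (457), *Mmrn2* (397), *Adgrf5* (385) and *Gpr182* (339). *Ly6a*, *Ly6c1* and *Ctla2a* have close copies in the genome, so reads may have been shared or lost among them. The 25th gene by fold outside the rule, *Gpr182*, stood at 32.7-fold, and *Ecscr*, the next gene and so not among the 25, at 29.5-fold.

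Promoters are shown because transcription factors of the ETS family, which bind a core of GGAA, are known to act at many endothelial genes. RefSeq promoter windows on GRCm38.p6, reaching from 250 bases before to 50 bases after the annotated start, were at hand for 16 of the 25 leading genes. The letters AGGAAG, or CTTCCT on the other strand, stood in 10 of these 16 windows (62.5%): those of *Adgrf5*, *Adgrl4*, *Cavin2*, *Ctla2a*, *Ehd3*, *Fam167b*, *Flt1*, *Gimap4*, *Gimap5* and *Rgcc*. They stood in 35.1% of all 27025 windows of that length. The FOX letters TGTTTAC (or GTAAACA) stood in 0 of the 16 and 3.55% of all windows, the SOX letters ACAAAG (or CTTTGT) in 1 (*Tek*) and 18.7%, and the SOX letters ACAATG (or CATTGT) in 0 and 12.8%. The GATA letters AGATAA (or TTATCT) stood in 2 windows (*Ctla2a*, *Tek*) and 11.4% of all, and the AP-1 letters TGANTCA, the same on both strands, in 1 (*Ctla2a*) and 7.93%. Of the 16 windows, those of *Flt1* and *Gimap4* alone held at least 2 ETS matches, as did 8.47% of all windows. Their 250 bases before the start are printed in the direction of transcription, with the ETS letters in capitals. The *Flt1* stretch is chr5:147726012-147726261 on the minus strand and the *Gimap4* stretch chr6:48684328-48684577 on the plus strand.
Flt1: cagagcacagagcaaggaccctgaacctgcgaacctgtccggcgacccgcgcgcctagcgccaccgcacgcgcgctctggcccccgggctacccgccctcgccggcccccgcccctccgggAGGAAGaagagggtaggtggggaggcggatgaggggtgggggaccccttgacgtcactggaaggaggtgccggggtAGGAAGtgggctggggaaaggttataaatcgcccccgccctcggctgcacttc
Gimap4: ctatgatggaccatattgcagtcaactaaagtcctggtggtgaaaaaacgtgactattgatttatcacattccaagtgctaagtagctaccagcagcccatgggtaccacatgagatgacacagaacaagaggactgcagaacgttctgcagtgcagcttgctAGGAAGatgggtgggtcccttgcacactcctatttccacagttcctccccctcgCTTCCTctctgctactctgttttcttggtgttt
The *Flt1* matches begin 129 and 53 bases before the start, and those of *Gimap4* 87 and 33 bases before it. These are matches of letters in short windows. Binding was not measured, and a window without a match says nothing about a factor.

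The VEGF and angiopoietin pathway was present in members on the receptor side. Of its 13 genes, 9 could be compared with non-endothelial cells, 7 were higher and 2 lower, with a median fold of 20.7 beside 0.982 for all genes compared. Over all genes compared 12.6% were higher and 14.7% lower. The counts of each list below against non-endothelial cells are to be read beside these shares. The 7 higher genes were the receptors and co-receptors. *Flt4*, the receptor for VEGF-C, was at 205 CPM against 0.324 CPM, and *Tie1*, the partner of *Tek*, at 208 CPM against 0.540 CPM. The co-receptors *Nrp1* and *Nrp2* were at 470.0 and 437 CPM against 77.9 and 28.6 CPM, and *Ptprb*, the phosphatase that restrains Tek, was at 644 CPM against 1.29 CPM. The 2 lower genes were ligands: *Vegfa* was at 4.94 CPM (2.93 to 7.80) in members, 60.1 CPM in cortex-like cells and 20.9 CPM in chromaffin-like cells, and *Vegfb* at 32.6 CPM against 98.0 CPM. The intervals of *Vegfa* did not overlap between members and either gland cell type. The angiopoietins and placental growth factor were scarce, with 13 UMIs of *Angpt2*, 6 of *Angpt1* and 0 of *Pgf* among all members, and 0 UMIs allows up to 0.823 CPM.

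Lists of caveolae, basement membrane and junctions also held mostly genes past 2-fold higher in members. Of 10 genes of caveolae and diaphragm trafficking, 8 were higher and 1 lower (median fold 3.41). *Cavin2* and *Cavin3*, coat proteins of caveolae, were at 476 and 553 CPM against 1.70 and 148 CPM. *Cav1*, their core protein, was at 36.5 CPM against 8.98 CPM, and *Pacsin3*, a membrane-bending protein, was the lower member at 3.84 CPM against 28.4 CPM. Of 14 basement membrane genes, 12 were higher and 1 lower (median fold 3.84). The collagen IV chains *Col4a1* and *Col4a2* were at 1782 and 757 CPM against 118 and 59.9 CPM, and *Nid1*, which links laminin to collagen IV, at 372 CPM against 11.7 CPM. *Sparc*, a collagen-binding protein, was at 7379.6 CPM but also at 3443 CPM outside endothelium, and *Col18a1* was the lower gene at 3.02 CPM against 20.9 CPM. Junction genes counted 9 higher and 1 lower of 11 compared (median fold 2.90). *Esam*, an adhesion molecule of endothelial contacts, was at 471 CPM against 1.46 CPM and *Tjp1*, which ties junctions to actin, at 217 CPM against 34.0 CPM. *Pard3*, a polarity gene, was lower at 8.78 CPM against 42.8 CPM, and no UMI of *Ocln* or *Cgn*, genes of tighter barriers, was found in members.

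Lipid uptake was a mixed list beyond its leading genes. Of 10 genes compared, 5 were higher and 3 lower (median fold 1.84). *Cd300lg*, a mucin-like lipid receptor of capillaries, was at 118 CPM against 0.351 CPM, and *Fabp5*, another fatty acid carrier, at 324 CPM against 62.5 CPM. *Lpl*, the lipase that GPIHBP1 holds, was low in members at 3.84 CPM and higher in chromaffin-like cells (47.0 CPM) and macrophage-like cells (51.6 CPM). The fatty acid transporter *Cd36* was at 49.9 CPM against 38.5 CPM, less than 2-fold apart, and varied among members as described below.

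Nearly all listed transcription factors of endothelium were higher in members, 20 of 21 compared (median fold 4.47). The ETS factors *Ets1*, *Fli1* and *Erg* were at 409, 165 and 117 CPM against 9.28, 3.32 and 0.324 CPM. *Klf2*, which responds to blood flow, was at 592 CPM against 44.6 CPM, and *Mef2c* at 689 CPM against 54.5 CPM. *Sox18* and *Sox7*, factors of early vessels, were at 32.9 and 27.7 CPM, and *Epas1*, an oxygen-sensing factor, at 197 CPM. *Nr2f2*, known for its part in venous identity, was at 796 CPM against 28.5 CPM. *Tshz2* was at 1115 CPM, but non-endothelial cells also held 429.8 CPM. The exception was *Gata2*, at 26.1 CPM in members and 221 CPM in chromaffin-like cells, and *Etv2*, a factor of the first endothelial progenitors, had no UMI.

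**Figure D2:**
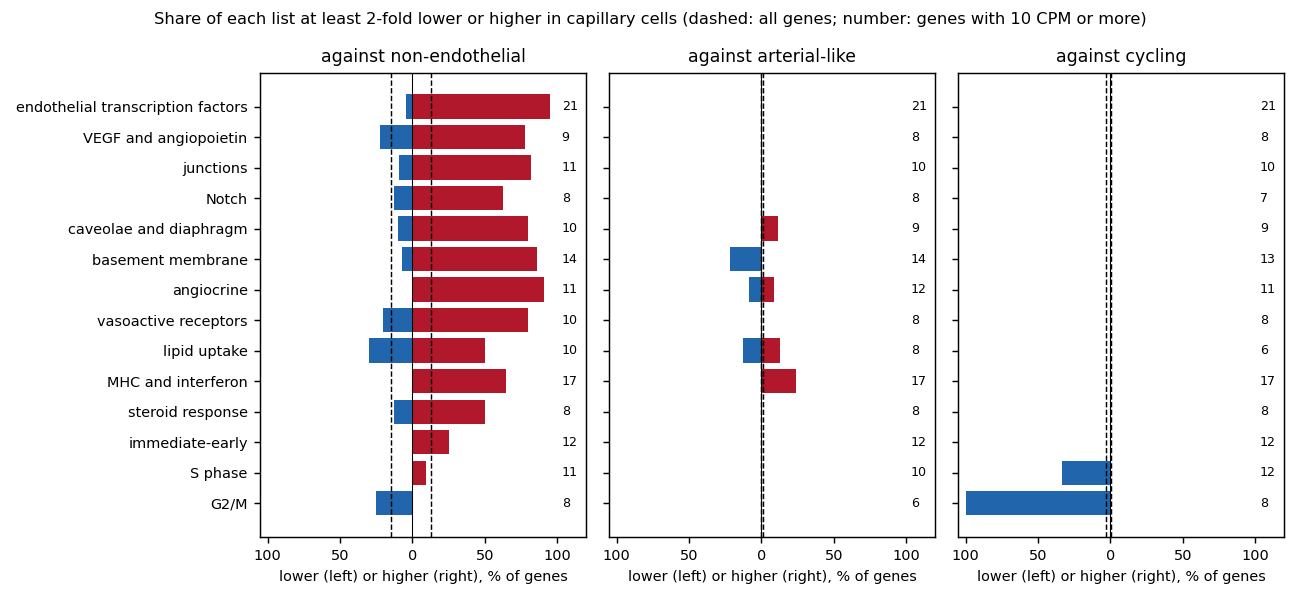
Percent of the comparable genes of 14 lists that were at least 2-fold higher (red, right) or lower (blue, left) in capillary cells than in non-endothelial, arterial-like or cycling endothelial cells, with dashed lines for all genes and the number of genes compared at the right of each bar. Against non-endothelial cells most lists extend to the right, with 20 of 21 transcription factors higher, and against cycling cells the S phase and G2/M lists alone, of these 14, hold genes past 2-fold.

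The vasoactive receptors found in members were those for endothelin, adrenomedullin, apelin and natriuretic peptides. Of 24 listed genes only 10 reached the level for comparison, 8 being higher and 2 lower (median fold 7.09). *Calcrl*, the receptor that *Ramp2* and *Ramp3* modify, was at 289.9 CPM against 1.94 CPM, and *Ramp3* at 268 CPM against 1.56 CPM. The apelin receptor *Aplnr* was at 96.0 CPM against 0.135 CPM, the natriuretic peptide receptor *Npr1* at 108 CPM against 35.2 CPM, and the nitric oxide synthase *Nos3* at 40.3 CPM. Several adrenergic receptors, which bind the hormones of the neighbouring chromaffin cells, were at or near the floor, with 5 UMIs of *Adrb1* and none of *Adrb3*, *Adra1a*, *Adra1b*, *Adra1d*, *Adra2a*, *Adra2b* or *Adra2c*. A count of 0 UMIs allows a level of up to 0.823 CPM in members, so these 7 genes were not detectable at this depth. The angiotensin receptor *Agtr1a* (1.37 CPM against 32.6 CPM) and the PACAP receptor *Adcyap1r1* (0 UMIs, against 30.2 CPM) were the 2 lower genes. *Ace*, found on many capillaries, had no UMI either, and *Edn1*, the endothelin ligand, had 1.

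Members held the receptor for glucocorticoids, the steroids that the cortex sends through the medulla. *Nr3c1*, the glucocorticoid receptor, was at 84.2 CPM against 44.8 CPM, a fold of 1.72, while the mineralocorticoid receptor *Nr3c2* had 2 UMIs and the oestrogen receptor *Esr1* 0. Of 8 genes of the steroid response compared, 4 were higher and 1 was lower (median fold 2.19), beside 12.6% higher and 14.7% lower of all genes. *Sgk1*, a kinase that steroids induce, was at 472 CPM against 31.1 CPM, and *Klf9* at 354 CPM against 126 CPM. *Tsc22d3*, which encodes the glucocorticoid-induced leucine zipper, was at 174 CPM against 53.2 CPM, and *Fkbp5*, a chaperone of the receptor, at 134 CPM against 42.0 CPM. Stress from dissociation was not tested. The immediate-early and heat shock genes stood at a median fold of 1.18, 3 of 12 being higher (*Jun*, *Hspa1a*, *Hspa1b*) and none lower, beside the same shares of all genes. *Hspa1a* and *Hspa1b* are near-identical copies, and *Fos* was at 601 CPM in members and 719 CPM in non-endothelial cells.

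**Figure D3:**
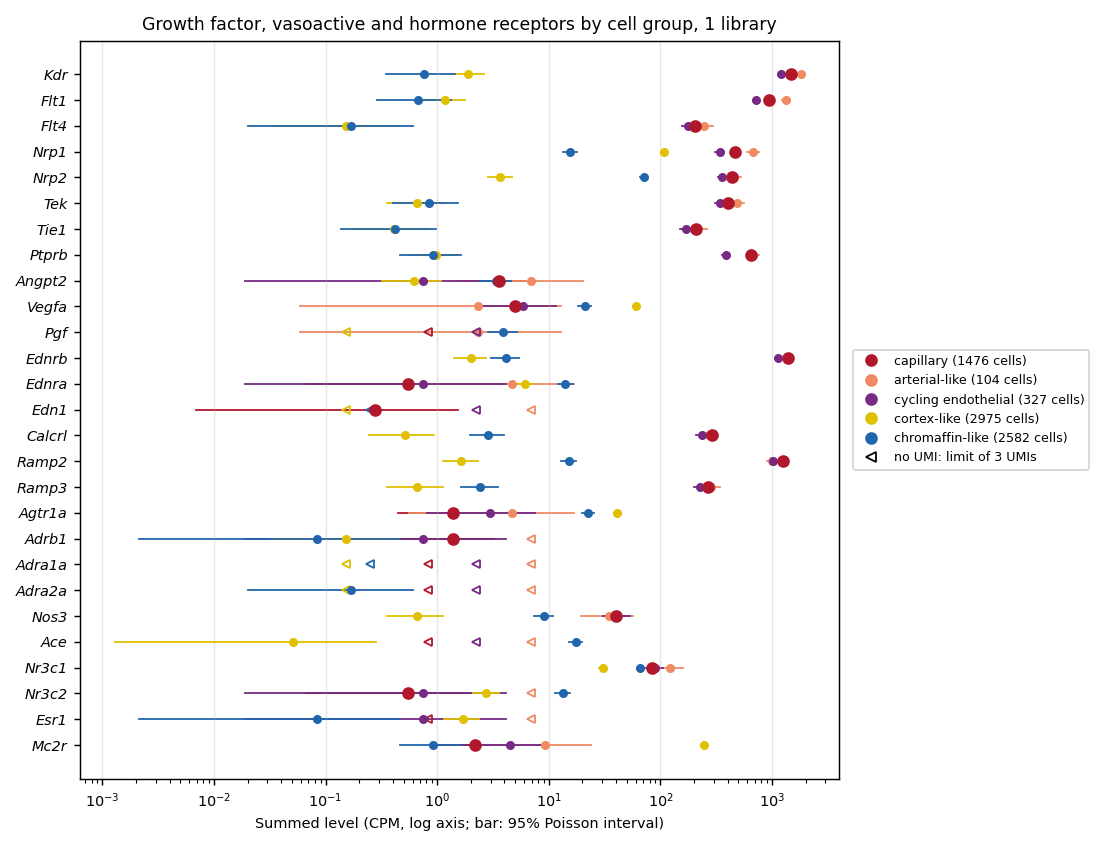
Summed level in CPM (log axis, bars for 95% Poisson intervals) of ligands and receptors for vascular growth factors, vasoactive peptides and steroids in 5 cell groups of 1 library, with open triangles for the limit of 3 UMIs where a group had none. *Kdr*, *Ednrb* and *Ramp2* lie above 1000 CPM in capillary cells, *Vegfa* is highest in cortex-like cells at 60.1 CPM, and *Adra1a* and *Adra2a* have no UMI in any of the 3 endothelial groups.

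Members held several genes for secreted and contact signals. Of 11 angiocrine genes compared, 10 were higher and none lower (median fold 4.17). *Tgfb1* was at 224 CPM against 30.9 CPM, *Bmp2*, a bone morphogenetic protein, at 199.6 CPM against 15.8 CPM, and *Fgf1* at 112 CPM against 3.48 CPM. *Kitl*, the ligand of the Kit receptor, was at 109 CPM, the repulsive cue *Sema3f* at 100.4 CPM and *Pdgfb*, which recruits pericytes, at 59.0 CPM. The remaining angiocrine genes included *Bmp4*, *Wnt9b*, *Rspo3* and *Bmp6*, with 8, 5, 4 and 2 UMIs. In the Notch pathway 5 of 8 genes compared were higher and 1 lower (median fold 3.28). The receptors *Notch1* and *Notch4* were at 129 and 70.2 CPM against 7.96 and 1.62 CPM, the ligand *Dll4* at 34.0 CPM against 0.108 CPM, and the target *Hes1* at 257 CPM against 26.1 CPM. *Notch2* was the lower gene at 7.68 CPM, and *Jag1*, a ligand of larger vessels, was at 3.29 CPM.

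Among RNAs of antigen presentation in members, the class I genes *B2m*, *H2-D1* and *H2-K1* stood above *Cd74* of class II. Presentation itself was not measured. Of 17 genes of the major histocompatibility complex and the interferon response, 11 were higher and none lower than in non-endothelial cells (median fold 3.86). *Ifitm3*, an interferon-induced membrane protein, was at 2772 CPM against 111 CPM, and the class I genes *B2m*, *H2-D1* and *H2-K1* were at 827, 825 and 609 CPM against 207, 213 and 105 CPM. *Cd74*, the chain that escorts class II, was at 126 CPM in members, in 6.504% of them, and at 6200.1 CPM in macrophage-like cells. In the cluster of 37 members with macrophage genes, described below, it was at 2474 CPM, and in each of the other 8 clusters it was under 60 CPM.

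Lists of other vascular beds gave a mixed picture. Of 8 venous genes compared, 6 were higher and none lower than in non-endothelial cells (median fold 7.81). *Nr2f2* and *Nrp2* of the same list are given above, and *Lrg1*, a glycoprotein of venules, was at 304 CPM against 3.91 CPM. The genes of larger veins and of inflamed venules were scarce, with *Vwf* at 11.2 CPM in 1.96% of members, 12 UMIs of *Sele*, 1 of *Selp* and 1 of *Ackr1*. Genes of lung and kidney capillaries were split: 6 of 7 compared were higher and 1 lower (median fold 65.7), led by *Gpihbp1*, *Rgcc*, *Ednrb* and *Ehd3*, while *Car4* and *Sost* had no UMI, *Aqp1* had 1 and *Tbx3* was lower at 44.4 CPM against 103 CPM. Of the liver sinusoid genes all 5 compared were higher (median fold 4.52). *Stab1*, a scavenger receptor, was at 222 CPM (macrophage-like cells 521 CPM) and *Oit3* at 76.2 CPM against 0.243 CPM, but *Stab2* was at 11.2 CPM and *Clec4g* and *Gata4* had no UMI. Genes of the blood-brain barrier were scarce, only 2 of 10 reaching the level for comparison, with *Lef1* at 13.2 CPM and *Abcb1a*, an efflux pump, lower at 0.548 CPM against 12.7 CPM. *Slco1a4*, *Slco1c1* and *Foxf2* had no UMI.

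Lymphatic and tip cell genes were also looked for. *Lyve1*, a hyaluronan receptor of lymphatic vessels and sinusoids (chromosome 7, 110850607 to 110863239, minus strand), was at 227 CPM in 21.8% of members against 0.566 CPM, and *Flt4* was higher as given above. The defining lymphatic genes *Pdpn* and *Ccl21a* had no UMI, and *Prox1* was lower at 18.4 CPM against 103 CPM. Of 8 tip cell genes compared, which mark sprouting endothelium, 7 were higher (median fold 4.68). *Esm1*, a proteoglycan of sprouting tips, was at 67.7 CPM against 0.270 CPM, whereas *Apln* was at 7.68 CPM. Of 8 further genes of arteries compared, 5 were higher (*Mgp*, *Fbln2*, *Eln*, *Unc5b*, *Dll4*) and 2 lower (*Stmn2*, *Clu*), with a median fold of 2.33, and *Mgp* was found in 9.62% of members.

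Capillary and arterial-like endothelial cells were compared next, and the number of genes apart depended on the setting. Of 8611 genes compared, 63 (0.732%) were at least 2-fold higher in members and 44 (0.511%) lower, with 104 cells on the arterial-like side. With every cell thinned to 1000 UMIs the counts were 864 and 516, and with folds of CPM + 1 they were 306 and 290. Thinning left 101 arterial-like cells of 1000 UMIs each, so a few UMIs could carry a gene across the limit. Of the 864 and 516 genes, 38 and 37 were among the 63 and 44. None of 21 transcription factors, 8 VEGF and angiopoietin genes, 10 junction genes or 8 vasoactive receptors differed by 2-fold. *Cavin2* was higher in members at 476 CPM against 219.7 CPM (2.11-fold), and *Lyve1* at 227 CPM against 102 CPM (2.12-fold). The log2 fold of *Lyve1* came to 0.996, just under the limit, without cells that held 3 or more genes of 1 of 6 lists of other cells. *Gas6*, a ligand of TAM receptors, was at 79.8 CPM against 25.4 CPM, though its log2 fold of 1.34 was 0.47 on thinned counts, and *Cd36* at 49.9 CPM against 16.2 CPM. Levels of these genes were uneven among members: outside cluster 3, a cluster of 172 cells described below, *Cavin2* was at 348 CPM, *Lyve1* at 141 CPM and *Cd36* at 32.1 CPM, each under 2-fold above the arterial-like level on the CPM + 10 scale. Just under the limit, the clotting factor gene *F8* (159.6 against 76.3 CPM) and the prostaglandin transporter *Slco2a1* (135 against 64.7 CPM) were also higher by point value, and *Pcmtd2* and *Flrt3* completed the named genes on that side. Of 9 venous genes compared, 2 were higher (*Vwf*, *Vcam1*) and none lower (median fold 1.18), beside 0.732% and 0.511% of all genes. Of 7 cortex genes compared, which the rule limits in both groups, *Star* and *Cyp21a1* were higher and none lower. The class II genes *Cd74*, *H2-Aa*, *H2-Ab1* and *H2-Eb1* were higher too, together with the macrophage genes *C1qa*, *Lyz2* and *Ctss*, and the macrophage list summed to 683 CPM in members and 398 CPM in arterial-like cells. Outside cluster 7, a cluster of 37 members described below, *C1qa*, *Lyz2*, *Ctss* and *H2-Aa* were at 5.70, 5.13, 0.856 and 7.42 CPM. At such levels a gene cannot be 2-fold higher on the CPM + 10 scale. Of the 10 named genes higher in members, *Hbb-bs* (1424 against 53.2 CPM), a globin of red cells, *Akr1cl* (132 against 18.5 CPM) and *Akr1c18* (147 against 34.7 CPM) are genes of other cells, the last pair standing at 4744 and 4873 CPM in cortex-like cells. *Akr1cl* and *Akr1c18* fell under 2-fold without the small clusters, at log2 folds of 0.90 and 0.61, and without those clusters 37 genes were higher and 73 lower, 36 of the 37 also being among the 63. *Hbb-bs* had a log2 fold of 0.26 once endothelial cells with 3 or more genes of 1 of 6 lists of other cells were set aside.

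On the other side, the named genes that were lower in members had varied roles. Of the lists that name such vessels, none of 8 further artery genes was lower (median fold 0.936) and 1 of 8 tip cell genes was, *Esm1* (median fold 0.737), beside a median of 0.970 for all genes. *Mal*, a raft protein, was at 2.74 CPM against 67.1 CPM, the hormone *Stc1* at 8.23 CPM against 41.6 CPM, and *Mecom*, a transcription factor of arterial endothelium, at 12.1 CPM against 46.2 CPM. *Igfbp5*, which binds insulin-like growth factors, was at 169 CPM against 405 CPM, *Esm1* at 67.7 CPM against 166 CPM and *Kitl* at 109 CPM against 234 CPM. The matrix genes *Lamb1* (21.9 against 60.1 CPM) and *Sparcl1* (68.0 against 162 CPM) were lower as well, but without the cells with genes of other cells the log2 fold of *Sparcl1* was -0.80, short of the limit. The other named genes that were lower were *Gm35533*, *Sipa1l2* and *Clic5*. Mural genes moved with this contrast, since *Rgs5*, a marker of pericytes, was at 1.10 CPM in members and 43.9 CPM in arterial-like cells, and the mural list summed to 182 and 354 CPM. Fibroblast genes moved likewise, the list summing to 48.3 and 150.3 CPM with *Col1a2* and *Dcn* lower of 4 compared (median fold 0.565). With endothelial cells that held 3 or more genes of 1 of 6 lists of other cells set aside, 27 genes were lower, and 15 of the 44 (34.1%) were among them. The part of mural and fibroblast RNA in these differences was not tested.

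Cycling endothelial cells differ from the members by the cell cycle genes that the rule used. Of 8554 genes compared, 12 (0.14%) were higher in members and 237 (2.77%) lower. All 8 G2/M genes that were not in the rule were lower, among them *Top2a* (49.4 against 734 CPM) and *Mki67* (26.6 against 611 CPM). Of 12 S phase genes compared 4 were lower, *Pcna* (50.2 against 122 CPM), *Tyms*, *Rrm2* and *Uhrf1*. None of 21 transcription factors and none of 8 VEGF and angiopoietin genes was called either way, while 2 of 7 further artery genes (*Fbln5*, *Mgp*) and 1 of 7 genes of lung and kidney capillaries (*Igfbp5*) were higher. The macrophage gene *Lyz2* and 4 globin genes were higher as well. Without cells that held 3 or more genes of 1 of 6 lists of other cells, 4 of the 12 genes stayed higher, and the log2 fold of *Hbb-bs* was 0.69 and that of *Apoe* 0.51. *Igfbp5*, at a log2 fold of 1.04, fell short of the limit there and under stricter cell limits, and came to 0.86 with no arterial gene allowed. The few genes higher in members included *Igfbp5* (169 against 77.0 CPM), *Mgp* (221 against 61.4 CPM), which encodes an inhibitor of calcification and stood at 62.2 CPM outside cluster 3, and *Apoe* (828 against 398 CPM). *Apoe* was at 33909 CPM in macrophage-like cells, and without the clusters of under 50 cells its log2 fold turned to -0.31. *Slfn5* (302 against 151 CPM) and *Syn3* (77.9 against 36.3 CPM) came just under 2-fold. The other named genes were *Hbb-bs*, *Kdm5b*, *Prr13*, *Plscr4*, *Mxra8* and *Pdrg1* on the higher side, and the mitotic or replication genes *Nusap1*, *Hist1h1b*, *Cdca8*, *Tpx2*, *Cenpe*, *Ccna2*, *Hmmr* and *Aspm* on the lower.

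The members were not uniform. Clustering on genes outside the rule gave 9 clusters, of 443, 391, 172, 166, 129, 100, 37, 24 and 14 cells. The genes that define a cluster were picked by the clustering and are given as a description. Cluster 3 (172 cells, median 1509 UMIs) stood out by matrix genes. *Mgp* was at 1883 CPM in it and 62.2 CPM in the other members, *Fbln2*, a fibulin of elastic fibres, at 406 and 20.4 CPM, and *Eln*, elastin itself, at 333 and 21.9 CPM. The cluster was also high in *Lyve1* (1122 against 141 CPM), *Cavin2* (1804 against 348 CPM), *Cd36* (236 against 32.1 CPM) and *Bgn* (497 against 69.1 CPM), a proteoglycan on the venous list. It held *Plvap* at 2452 CPM, *Vwf* at 94.3 CPM and the leading genes *Ehd3*, *Cldn5* and *Gpihbp1* at 512, 279.8 and 1047 CPM, below the 1720.5, 796 and 2058 CPM of all members. The fibroblast genes *Dcn* and *Col1a2* were at 0 and 6.29 CPM in it, and the mural gene *Pdgfrb* at 0 CPM. It held no doublet call, and its 20 leading genes had a median fold of 0.690 in arterial-like cells over members.

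**Figure D4:**
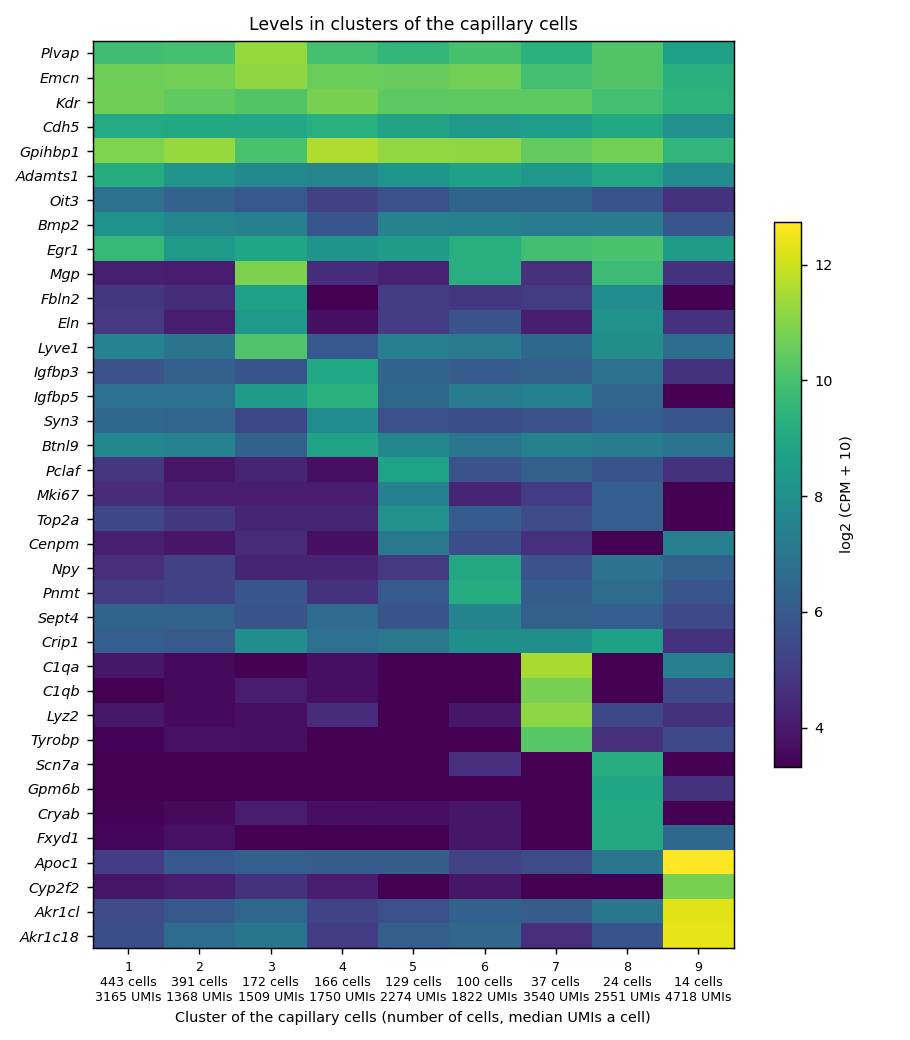
Level as log2 (CPM + 10) of the 4 naming genes, *Gpihbp1* and leading genes of the clusters in 9 clusters of the capillary cells, each labelled with its number of cells and median UMIs. *Mgp*, *Fbln2*, *Eln* and *Lyve1* are high in cluster 3, *Igfbp3* and *Igfbp5* in cluster 4, *Pclaf* and *Mki67* in cluster 5, and *C1qa* in cluster 7.

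Cluster 3 was also found when the members were clustered on 1 of 2 equal random splits of the UMIs. The matching cluster of 253 cells held 90.7% of cluster 3, whose cells made up 61.7% of it, and the UMIs kept out of that clustering gave *Mgp* a ratio of 12.7 (95% interval 10.3 to 15.8) over the remaining members. The ratio was 6.15 (5.04 to 7.52) for *Lyve1*, 4.90 (4.28 to 5.61) for *Cavin2* and 5.25 (3.93 to 7.002) for *Bgn*. At a resolution of 0.2, which gave 5 clusters, 79.7% of cluster 3 formed a cluster without other members, and at 0.8, with 12 clusters, 98.8% fell in a cluster that was 89.9% cluster 3.

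Cluster 4 (166 cells, median 1750 UMIs) led with genes of growth factor binding and guidance. *Igfbp3* was at 482 CPM against 52.3 CPM in the other members and *Igfbp5* at 637 against 124 CPM. *Efna1*, an ephrin, was at 192 against 87.1 CPM and *Kitl* at 211 against 99.4 CPM. It also held *Gpihbp1* at 3089 CPM, *Efnb2* at 322 CPM, *Esm1* at 192 CPM and *Flt1* at 1393 CPM, while *Cavin2* and *Lyve1* were at 91.4 and 50.4 CPM. Cluster 3 was thus high and cluster 4 low in *Cavin2* and *Lyve1*, and the order was the reverse for *Gpihbp1*. *Igfbp5* and *Kitl* were at least 2-fold higher in arterial-like cells too. Cluster 4 was not separate at resolution 0.2 or on the split UMIs.

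Cluster 5 (129 cells, median 2274 UMIs) went against the label. *Pclaf*, a partner of the replication clamp, was at 428 CPM against 17.3 CPM in the other members, *Mki67* at 167 against 11.3 CPM and *Tyms*, an enzyme of thymidylate synthesis, at 197 against 39.2 CPM. Of its 20 leading genes 13 were at least 2-fold higher in cycling endothelial cells. The 6 cell cycle genes of the rule are mostly of G2 and mitosis, and the S phase genes were not used to choose members. Like cluster 4, cluster 5 was not separate at resolution 0.2 or on the split UMIs. Cluster 1 (443 cells, median 3165 UMIs) was higher in *Adamts1*, a metalloprotease (561 against 281 CPM), *Oit3* (107 against 52.6 CPM), *Bmp2* (269 against 147 CPM) and the immediate-early gene *Egr1* (782 against 439 CPM), with folds of at most 1.96 among genes found in at least 25% of its cells. Cluster 2 (391 cells, median 1368 UMIs) had a lower depth, held *Hbb-bs* at 6106 CPM, and had no gene above 1.41-fold among those found in at least 25% of its cells. The part of depth in setting it apart was not tested. Clusters 1 to 5 held no doublet call.

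The remaining clusters carried genes of other cells. Cluster 6 (100 cells) led with the chromaffin genes *Npy* (504 against 19.5 CPM) and *Pnmt* (557 against 30.8 CPM), and it also held *Mgp* at 595 CPM and the fibroblast genes *Dcn* and *Col1a2* at 124 and 228 CPM. Cluster 7 (37 cells) led with macrophage genes, *C1qa* being at 2858 against 5.70 CPM, and 94.6% of its cells held 3 or more of 10 macrophage genes. Cluster 8 (24 cells) led with *Scn7a* and *Gpm6b*, genes of glia, and cluster 9 (14 cells) with *Apoc1* and *Akr1c18*, the latter being known for steroid metabolism. Scrublet called 73.0% of cluster 7, 37.5% of cluster 8 and 85.7% of cluster 9 as doublets. These 3 clusters were kept in the values above. Without them 1228 genes were higher and 1539 lower than in non-endothelial cells, 37 and 73 than in arterial-like cells, and 7 and 262 than in cycling cells.

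Single-cell states were read from lists in cells thinned to 1000 UMIs, which left 1335 members, 141 being shallower. At least 2 of 12 tip cell genes were found in 104 members (7.79%, 6.41 to 9.36), 2 of 12 venous genes in 570 (42.7%, 40.02 to 45.4), 2 of 12 S phase genes in 139 (10.4%, 8.82 to 12.2) and 2 of 12 immediate-early genes in 937 (70.2%, 67.7 to 72.6). Without thinning these shares were 25.2%, 71.0%, 27.7% and 82.7%. Levels were compared on all UMIs without cells that held 3 or more genes of 1 of 6 lists of other cells, which left 540 members with venous genes and 263 with none, and 100 with tip genes and 813 with none. Members with venous genes had more *Mgp* than members with none (315 against 71.9 CPM, ratio 4.38, 3.22 to 6.07), more *Cavin2* (633 against 316 CPM, ratio 2.0045, 1.72 to 2.35) and more *Lyve1* (304 against 144 CPM, ratio 2.11, 1.68 to 2.68). They had less *Kcne3*, a potassium channel subunit of tip cells (ratio 0.350, 0.230 to 0.529), and less *Igfbp3* (ratio 0.445, 0.331 to 0.597). Among other tip genes *Esm1* was lower too (ratio 0.570, 0.401 to 0.813). *Trp53i11* (1.23, 0.975 to 1.56), *Plaur* (1.22, 0.707 to 2.19) and *Nid2* (1.14, 0.751 to 1.76) were not. Members with tip genes showed the reverse for *Cavin2* (212 against 524 CPM, ratio 0.405, 0.308 to 0.524) and *Mgp* (58.2 against 219 CPM, ratio 0.265, 0.153 to 0.429), and had more *Gpihbp1* (ratio 1.37, 1.27 to 1.48). The interval of *Lyve1* spanned equal levels (0.797, 0.588 to 1.06). Of the venous list, *Bgn* (0.415, 0.211 to 0.741), *Nr2f2* (0.853, 0.736 to 0.985) and *Vcam1* (0.246, 0.0291 to 0.931) were lower. *Nrp2* (1.06, 0.880 to 1.28), *Lrg1* (1.12, 0.899 to 1.39) and *Aplnr* (1.44, 0.993 to 2.04) were not. Genes of other cells moved with the venous split, *Chgb* being at 83.4 CPM in members with venous genes and 189 CPM in members with none (ratio 0.441, 0.339 to 0.574). *Star* was at 133 and 222 CPM (ratio 0.598, 0.477 to 0.750), *Cyp11a1* had a ratio of 0.464 (0.332 to 0.647) and *Cyp21a1* one of 0.512 (0.390 to 0.674), and their part in the split was not tested. Some genes of other cells were also lower in members with tip genes. *Hsd3b1* had a ratio of 0.369 (0.157 to 0.747), *Cyp21a1* one of 0.486 (0.273 to 0.806) and *Chgb* one of 0.611 (0.381 to 0.937). Other cortex genes were not lower, with ratios of 1.31 (1.02 to 1.665) for *Scarb1*, 1.45 (0.952 to 2.15) for *Cyp11a1* and 1.10 (0.810 to 1.46) for *Star*. The part of such genes in the tip split was likewise not tested. The states were not exclusive, and 47 cells held both lists. Venous genes were found in 45.2% of the tip cells, near the 42.7% of all thinned members. Tip genes were found in 8.25% of the venous cells, near the 7.79% of all thinned members.

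RNA of other cell types was present in members at low levels. The rule limited the chromaffin and cortex genes a member could hold, so low levels of these 2 lists were partly set by the selection. The 7 chromaffin genes stood at 0.241 to 0.593% of their level in chromaffin-like cells, and the chromaffin list summed to 185 CPM in members against 249 CPM in macrophage-like and 142 CPM in cortex-like cells. The fibroblast genes stood at 0 to 0.875% of their level in the 26 fibroblast-like cells, with *Dpt* and *Mfap5* at 0. Lymphocyte genes summed to 10.97 CPM and sustentacular genes to 22.2 CPM. The globin list summed to 2478 CPM in members and 2280 CPM in non-endothelial cells, with *Hbb-bs* in 13.2% of members, and its near-identical copies share reads. Cortex genes stood at 0.682 to 2.42% of the cortex-like level with 1 exception: *Scarb1*, the receptor for high-density lipoprotein, was at 222 CPM, 57.1% of the 389.6 CPM in cortex-like cells. Macrophage genes stood at 0.877 to 3.22% except *Mrc1*, the mannose receptor, at 162 CPM, 31.6% of the 513 CPM in macrophage-like cells. *Mrc1* was found in 27.3% of members and *Scarb1* in 37.3%, and cluster 1, which held no doublet call, had *Mrc1* at 213 CPM. The potassium channel genes *Kcnj8* and *Abcc9* of the mural list were at 72.4 and 81.7 CPM, in 13.7% and 16.5% of members, while the mural genes *Rgs5*, *Pdgfrb* and *Myh11* were at 1.10, 5.21 and 0 CPM.

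**Figure D5:**
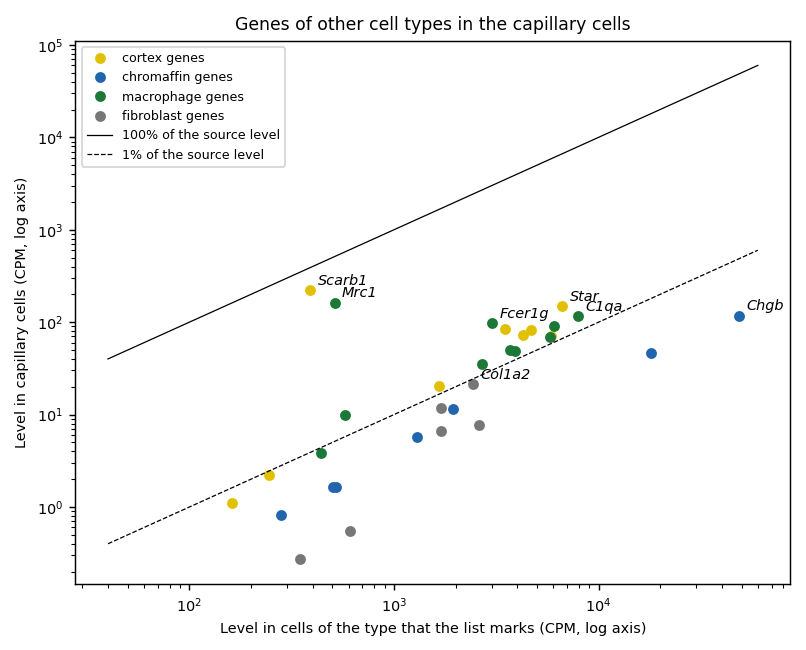
Level in capillary cells against level in the cells each list marks (both in CPM, log axes) for cortex, chromaffin, macrophage and fibroblast genes, each point being a gene, with lines at 1% and 100% of the source level and genes without a UMI in capillary cells not drawn. *Scarb1*, at 57.1%, and *Mrc1*, at 31.6%, lie above all other genes, which are at most 3.22%. The rule limited chromaffin and cortex genes, so their low levels were partly set by the selection.

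Mixed cells were few but not absent. In all, 80 members (5.42%) held 3 or more genes of 1 of the macrophage, lymphocyte, fibroblast, mural, sustentacular and red cell lists, 39 of them (2.64%) of macrophages, and Scrublet called 33 of the 80 (41.3%). Of the lists that the rule itself limits, 3 cortex genes were found in 94 members and 4 in 38, and 3 chromaffin genes in 15. Over all members Scrublet called 50 (3.39%), against 709 of the 10139 cells (6.99%), and none was removed. Both *Xist* and a gene of the Y chromosome, which cells of 1 sex do not share, were found in 16 members (1.08%), while 319 held only *Xist* and 415 only Y genes.

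The level of *Gpihbp1*, which is not in the rule, was read in cells on either side of each threshold. The 318 members with exactly 4 endothelial genes held *Gpihbp1* at 2083 CPM, and the 198 cells with 3, just outside, at 1898 CPM. The 433 members with 1 arterial gene held *Gpihbp1* at 2291 CPM and the 87 cells with 2 at 2232 CPM. The 117 members with 2 cell cycle genes held it at 2008 CPM and the 80 cells with 3 at 1736 CPM. Cells parted more widely at the cortex clause, with *Gpihbp1* at 1525 CPM in the 38 members with 4 cortex genes and 688 CPM in the 45 cells with 5. They did so too at the chromaffin clause, with *Gpihbp1* at 2065 CPM in the 15 members with 3 chromaffin genes and 1244 CPM in the 5 cells with 4. Between 4 and 7 endothelial genes the median depth of members rose from 1299.5 to 3546 UMIs.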

How the data were processed

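Cells of pooled adrenal medullae were profiled with a 10x 3′ kit, and the authors deposited UMI counts per gene and barcode. The submitters' processing notes name Cell Ranger 4.0.0 and the build mm10. From these counts, with python 3.11.15, numpy 2.4.6, scipy 1.17.1, pandas 2.3.3 and scanpy 1.11.5, members were chosen by the detected genes of each cell, counts were summed per group as CPM, and folds were taken on CPM + 10. Without replicate libraries no test was made. Depth was 51421499 UMIs over 11214 barcodes, at a median of 3250. Doublets were called with Scrublet and not removed. Members were clustered (Leiden, resolution 0.4) without the rule's genes. Counting was checked on simulated data. Figures were drawn with matplotlib 3.10.9. Gene positions are from GENCODE vM21.

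Other groups were named from marker counts: cortex-like (2975 cells), chromaffin-like (2582), macrophage-like (564) and fibroblast-like (26). Genes named in the text were the 25 with the largest fold over non-endothelial cells and a UMI in at least 25% of members, genes of the rule left out, the 10 largest each way against either endothelial group with a UMI in at least 10% of the higher group, again without the rule's genes, and the members of fixed lists. Cluster genes, the class II and macrophage genes higher than in arterial-like cells, the other-cell genes set beside the venous and tip states and *Ecscr* were named after their values were seen. The members and lists were chosen with earlier results of these data known. Alternatives changed the cell limits, clauses, doublets, depth, pseudocount, level filter, clustering and list limits. The study itself set endothelial cells aside. Values of a few listed genes are not reported here.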

Additional observations from a re-analysis of the deposited data

Results flagged for a closer look

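The 1075 barcodes outside the limits on genes and mitochondrial transcripts entered no comparison. Of these, 74 met all other clauses of the rule, 70 with under 500 genes and 4 with over 20% mitochondrial transcripts, at a median of 616.5 UMIs. They held *Fabp4* at 6868 CPM, *Gpihbp1* at 2372 CPM, *Rgcc* at 2123 CPM, *Ednrb* at 1358 CPM and *Flt1* at 784 CPM. The endothelial clause chose these 74 barcodes, so high endothelial genes describe the selection. *Fabp4* and *Gpihbp1* did not part capillary from arterial-like cells above, and few arterial genes can be detected at so low a depth.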

How the results depend on the processing

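All 25 leading genes stayed at least 2-fold higher than in non-endothelial cells in the 12 alternatives run, which their choice by the largest folds made close to certain. Counts moved more where few genes differed. Limits of 1000 genes or more and 10% mitochondrial transcripts or less left 866 members. With a level of at least 50 CPM, 804 genes were higher and 672 lower than in non-endothelial cells, 16 and 15 than in arterial-like cells, and 7 and 141 than in cycling cells. Against arterial-like cells the counts were 96 higher and 68 lower with no arterial gene allowed, 106 and 83 under stricter chromaffin and cortex clauses, 37 and 73 without clusters of under 50 cells, 864 and 516 on thinned counts, and 306 and 290 with a pseudocount of 1 CPM. The thinned counts rest on 101 arterial-like cells of 1000 UMIs each, so a few UMIs could move a gene. The lower count was 27 without cells with 3 or more genes of 1 of 6 lists of other cells and 123 from means over cells. Against cycling cells the higher count was 22 with no arterial gene, 7 without small clusters, 184 thinned, 4 without mixed cells and 26 from means over cells, and a pseudocount of 1 CPM gave 121 higher and 371 lower. *Apoe* against cycling cells reversed, from a 2.06-fold higher level to a log2 fold of -0.31 without small clusters, one of which is made of the 37 members with macrophage genes. Shares of members with tip, venous, S phase and immediate-early genes were 0.824, 12.4, 2.70 and 47.6% for at least 3 genes, 25.2, 71.0, 27.7 and 82.7% without thinning, and 20.2, 74.4, 25.3 and 89.7% when thinned to 2000 UMIs. A clustering resolution of 0.2 gave 5 clusters. In all, 63 summary values stayed within their limits and 39 moved, and the cause was not tested. The settings without small clusters, without globin genes, and without mixed cells for the shares were chosen after seeing the data. A gene with no UMI in members may stand at up to 0.823 CPM. No paired analysis was possible because 1 library was analysed here.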
